A study of Mus musculus with 32 samples.

Results

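The comparison described here sets LSK cells against progenitor cells in adult mice that lack Kat7, the gene of the histone lysine acetyltransferase HBO1, after deletion with the CreER recombinase. Its 8 libraries, 4 of each population, were chosen by their labels out of 32 in the series. The knockouts were C57BL/6 mice with both floxed Hbo1 alleles deleted by RosaCreERT2 after tamoxifen, and by the labels the same 4 mice, 3 females and 1 male, gave both populations. Mx1Cre knockouts, used for comparison with 4 libraries of each population, had both alleles deleted by Mx1-Cre after polyIC, which induces interferon. CreER controls, again 4 libraries of each population, carried RosaCreERT2, were treated with tamoxifen and had 1 allele deleted by their titles, while the treatment text calls the controls wild type. Both populations were sorted by FACS. The labels describe neither gate, and LSK is read here in its usual sense of lineage-negative, SCA1-positive, KIT-positive marrow cells. Neither RosaCreERT2 nor Mx1-Cre is restricted to blood cells. Of 27179 genes counted, 14459 passed the filter on low counts.

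HBO1 is the catalytic subunit of complexes that acetylate histone H3 and H4 tails, with a BRPF or JADE scaffold protein, an ING reader and MEAF6. LSK cells include the long-term haematopoietic stem cells and multipotent progenitors, some of which already transcribe lymphoid genes. Progenitors outside the LSK gate are mostly committed to the erythroid, megakaryocytic, granulocytic or monocytic lineage, each known by its own receptors, enzymes and transcription factors.

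Kat7 itself (chr11:95271853-95310246, mm10) was close to 0 in both knockout populations, with 0.511, 0.849, 0.832 and 1.22 CPM in LSK libraries, against 0.22, 0, 0.977 and 0.622 CPM in progenitor libraries. CreER controls held 53.4 to 74.8 CPM in LSK cells and 67.2 to 78.0 CPM in progenitors (CPM, counts scaled to the size of each library with TMM factors). The residual Kat7 signal, 0 to 16 reads a library, did not pass the test between the populations (log2 fold change with its SE, 0.85 ± 0.41, adjusted p = 0.15). Total counts were 11399713 to 17663493 in LSK libraries and 10281516 to 13501042 in progenitor libraries. Sex-linked transcripts went against the labels of 2 LSK libraries. The library labelled LSK replicate 2, from a female, had 0.736 CPM of Xist and 89.5 CPM of the Y-linked Ddx3y, and the library labelled LSK replicate 3, from a male, had 3401 CPM of Xist and 0.166 CPM of Ddx3y. The progenitor libraries of those mice matched their labels. Both LSK libraries lack Kat7 and stay in 1 group whichever mouse they came from, so the main test does not pair by mouse, and results are also given without these 2 libraries. The log2 CPM values correlated at 0.970 to 0.983 among LSK libraries, 0.969 to 0.986 among progenitor libraries and 0.925 to 0.963 between the populations.

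Without Kat7, LSK cells and progenitors differed in 3145 genes, 21.8% of those tested, at an adjusted p under 0.05 (edgeR's quasi-likelihood test with Benjamini-Hochberg adjustment, used for every adjusted p unless another tool is named). LSK cells were higher in 1867 of them (12.9%) and lower in 1278 (8.84%). Tested against a fold of 2, 438 genes passed (3.03%), 361 higher (2.5%) and 77 lower (0.533%) in LSK cells. The 4 LSK values stood all above the 4 progenitor values in 2166 genes (15%) and all below them in 1755 (12.1%). Lymphoid priming, Hox, Gimap and MHC class II genes were the lists with the highest medians in LSK cells, and erythroid, heme and neutrophil granule genes had the lowest. Without the LSK libraries labelled 2 and 3, 2194 genes passed, 1559 higher and 635 lower in LSK cells, and 2105 of these were among the 3145.

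**Figure D1:**
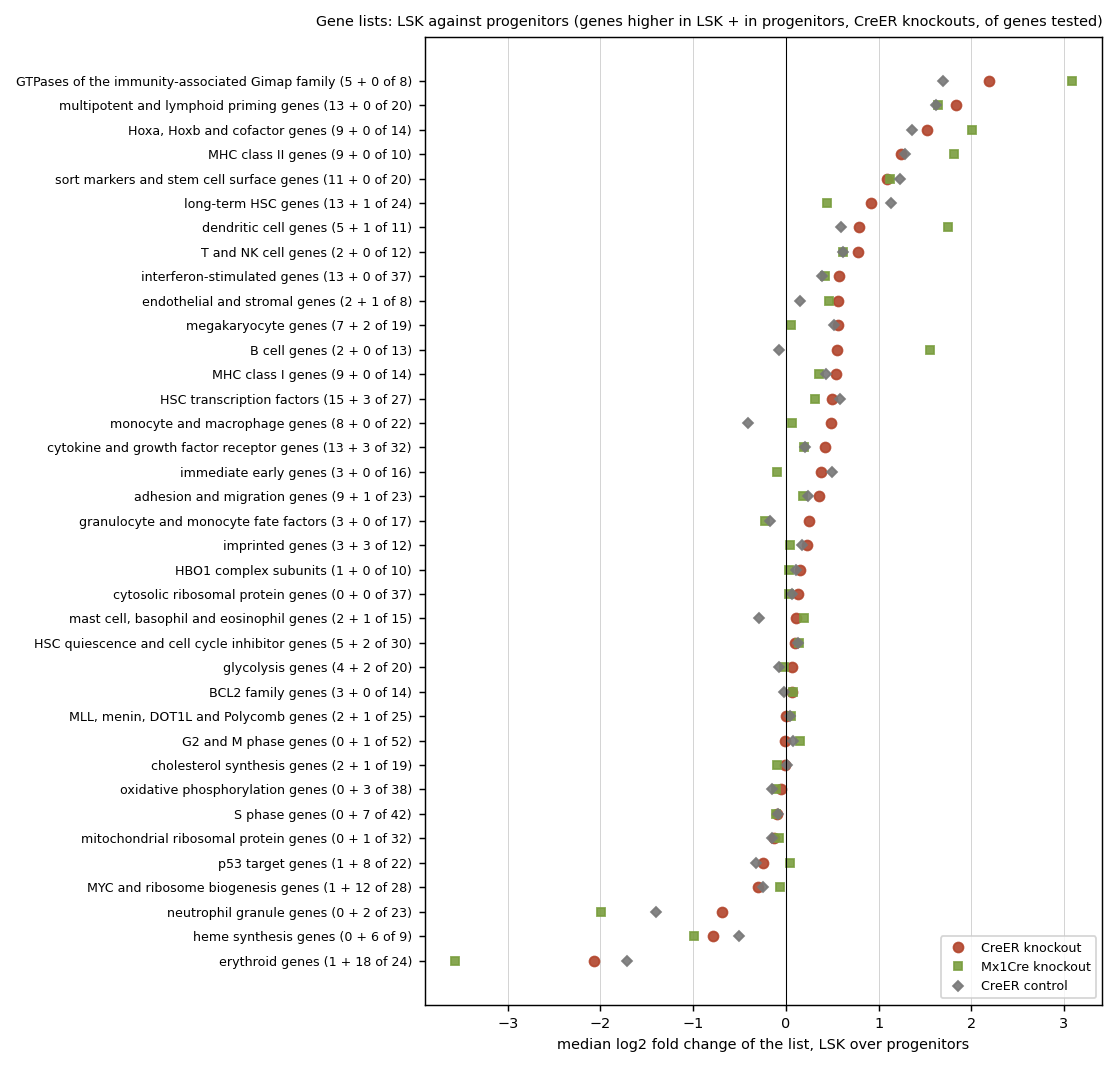
Median log2 fold change, LSK over progenitors, of the tested members of 37 gene lists in CreER knockouts (circles), Mx1Cre knockouts (squares) and CreER controls (diamonds). Each label gives the genes higher in LSK cells and those higher in progenitors in CreER knockouts, of the genes tested; medians run between 2.19 for Gimap genes and -2.07 for erythroid genes in CreER knockouts.

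Of the markers taken for the populations, Ly6a, Gata1 and Car1 separated them, as did Procr, Hlf, Mecom, Flt3 and Cd34, described below. Elane was lower in LSK cells as well, though its libraries overlapped. Kit, Mpo, Ctsg and Fcgr3 did not pass, and Csf1r went the other way. Ly6a, which encodes SCA1 and so was set by the sort, had 117, 50.2, 71.7 and 81.1 CPM in LSK libraries, against 6.31, 5.69, 5.21 and 3.73 CPM in progenitor libraries. Kit, the stem cell factor receptor, had 409.9, 308, 376 and 321 CPM in LSK libraries, against 399, 343, 302 and 352 CPM in progenitor libraries, and these values overlapped. Gata1, the factor of erythroid and megakaryocytic progenitors, had 49.5, 50.7, 37.6 and 37.2 CPM in LSK libraries, against 153, 141, 85.2 and 149 CPM in progenitor libraries (log2 fold change -1.59 ± 0.39, adjusted p = 0.00347). Car1, an erythroid carbonic anhydrase, had 114, 176, 102 and 128 CPM in LSK libraries, against 706, 676, 451 and 699 CPM in progenitor libraries (-2.29 ± 0.48, adjusted p = 0.000805). Both genes stood lower in all LSK libraries than in any progenitor library. Mpo, the myeloperoxidase of granulocyte progenitors, was high in both populations and did not pass the test (-0.39 ± 0.23, adjusted p = 0.251), and Ctsg, which encodes cathepsin G, did not either (-0.22 ± 0.25, adjusted p = 0.591). Nor did Fcgr3, an Fc receptor gene (-0.55, adjusted p = 0.0954). Elane, which encodes neutrophil elastase, was lower in LSK cells (-1.04, adjusted p = 0.0308). Csf1r, the M-CSF receptor, was higher in LSK cells (0.95, adjusted p = 0.00451). In bulk RNA, fewer cells of a type and less RNA per cell cannot be told apart.

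Lymphoid priming genes were much higher in LSK cells without Kat7 than in progenitors, beside 12.9% of all genes higher and 8.84% lower. Of 20 tested, 13 were higher and 0 lower, 9 of them past a fold of 2, and the median log2 fold change was 1.83, beside 0.00163 over all genes. Dntt, which encodes the terminal transferase of antigen receptor joining (chr19:41029275-41059525), had 123, 76.3, 94.5 and 75.2 CPM in LSK libraries, against 1.25, 0.386, 0.651 and 1.24 CPM in progenitor libraries, a fold of 100.6 (log2 fold change 6.65 ± 0.47, adjusted p = 5.33e-11). Per kilobase of exon, the means were 43.3 RPKM in LSK cells and 0.414 RPKM in progenitors. Flt3, the receptor of lymphoid-primed multipotent progenitors (chr5:147330741-147400489), had 232, 128, 199.7 and 131 CPM in LSK libraries, against 8.37, 6.47, 8.14 and 8.55 CPM in progenitor libraries (4.45 ± 0.29, adjusted p = 8.94e-12). The populations were far apart for both genes. Mn1, a transcriptional coregulator rearranged in leukaemia, had 12.5, 7.08, 13.9 and 8.59 CPM in LSK libraries, against 1.1, 0.386, 0.814 and 0.388 CPM in progenitor libraries (3.92 ± 0.39, adjusted p = 2.75e-08). Il17re, a subunit of an interleukin 17 receptor and not one of the 20, ranged over 5.04 to 15.2 CPM in LSK libraries and 0 to 0.311 CPM in progenitor libraries (6.07 ± 0.59, adjusted p = 1.5e-08). Satb1, a chromatin organiser of lymphoid cells, averaged 76.9 ± 12.5 CPM in LSK libraries and 24 ± 3.84 CPM in progenitor libraries (SD, n = 4 each; 1.68 ± 0.17, adjusted p = 5.13e-08). Cd27, a TNF receptor family member, and Il12rb1, a chain of the interleukin 12 receptor, were higher by 2.28 and 2.01 on the log2 scale. Il7r, the receptor of early lymphoid cells, was low, with 2.6 to 4.91 CPM in LSK libraries and 0.155 to 1.32 CPM in progenitor libraries (2.44 ± 0.78, adjusted p = 0.0232), and did not pass without the LSK libraries labelled 2 and 3. Without those libraries, 10 of the 20 were higher and 0 lower.

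**Figure D2:**
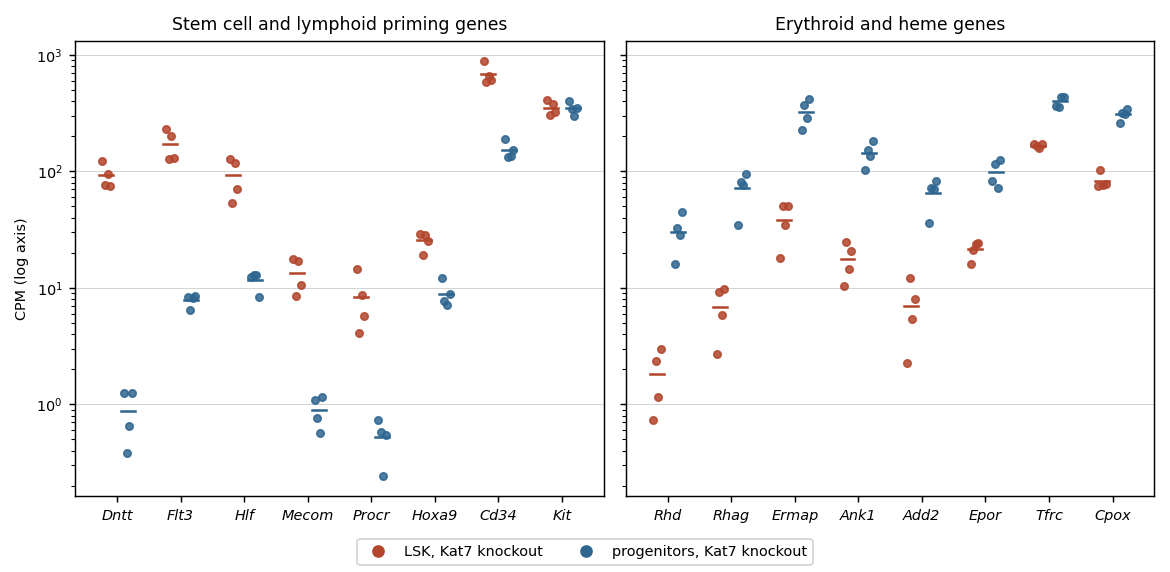
CPM on a log axis of 8 stem cell and lymphoid priming genes (left) and 8 erythroid and heme genes (right) in the 4 LSK and 4 progenitor knockout libraries, 1 point a library with a bar at the mean. LSK points lie above progenitor points for Dntt, Flt3, Hlf, Mecom, Procr, Hoxa9 and Cd34, mix with them for Kit, and lie below them for the erythroid and heme genes.

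Many stem cell surface genes and transcription factors were also higher in LSK cells, beside 12.9% of all genes higher and 8.84% lower. Among 20 sort markers and stem cell surface genes, 11 were higher and 0 lower, with a median of 1.09. Ly6a, among the 11, was set by the sort. Procr, the endothelial protein C receptor of long-term stem cells, had 14.5, 4.13, 8.74 and 5.7 CPM in LSK libraries, against 0.734, 0.579, 0.244 and 0.544 CPM in progenitor libraries (log2 fold change 3.94 ± 0.49, adjusted p = 8.86e-07). Every LSK value of Procr lay above every progenitor value. Esam, an adhesion molecule, Cd34, a sialomucin, and Fgd5, an exchange factor of small GTPases, were higher by 4.03, 2.16 and 4.58 on the log2 scale. The SLAM family genes Slamf1 (-0.42 ± 0.42, adjusted p = 0.539) and Cd48 (0.23 ± 0.13, adjusted p = 0.233) did not pass, nor did Vwf, which encodes von Willebrand factor (0.22 ± 0.34, adjusted p = 0.709). Of 24 long-term stem cell genes, 13 were higher and 1 lower in LSK cells, with a median of 0.92 (12 and 0 without the LSK libraries labelled 2 and 3), and Angpt1, the ligand of the TIE2 receptor, had 309, 166, 188 and 158 CPM in LSK libraries, against 136, 60.9, 37.9 and 51.4 CPM in progenitor libraries (1.52 ± 0.27, adjusted p = 0.000144).

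Of 27 stem cell transcription factors, 15 were higher and 3 lower in LSK cells, beside 12.9% of all genes higher and 8.84% lower. The share lower was near that of all genes. Hlf, a bZIP factor of stem cells, had 128, 53.7, 119 and 70.4 CPM in LSK libraries, against 12.4, 12.9, 12.9 and 8.39 CPM in progenitor libraries (log2 fold change 2.99 ± 0.25, adjusted p = 9.77e-10). Mecom, which encodes EVI1, had 17.8, 8.49, 16.9 and 10.6 CPM in LSK libraries, against 1.1, 0.772, 0.57 and 1.17 CPM in progenitor libraries (3.87 ± 0.37, adjusted p = 1.5e-08). Both were separate between the populations, as were Erg, an ETS factor (1.76 ± 0.22, adjusted p = 1.25e-06), and Meis1, a homeodomain partner of Hox proteins (1.95 ± 0.27, adjusted p = 4.26e-06). Gata3, a factor of lymphoid and stem cells, was higher by 2.11, Etv6, an ETS factor, by 0.69, and Lmo2, a LIM adaptor, by 0.50 on the log2 scale. The 3 lower factors were Tal1 (-0.72 ± 0.17, adjusted p = 0.00275), Gfi1b (-1.21 ± 0.35, adjusted p = 0.0115) and Bcl11a (-0.56 ± 0.16, adjusted p = 0.0131); the first 2 are known for roles in erythroid and megakaryocytic cells and the last for globin switching and lymphoid development. Gata2 (-0.11 ± 0.26, adjusted p = 0.826) and Runx1 (0.31 ± 0.16, adjusted p = 0.18), both required for stem cell formation, did not pass. Without the LSK libraries labelled 2 and 3, 13 factors were higher and 1 lower. Gfi1b, Bcl11a, Prdm16 and Mycn were among those no longer called, and Hoxb4 was called only then.

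Several Hoxa genes were higher in LSK cells than in progenitors, beside 12.9% of all genes higher and 8.84% lower. Of 14 Hoxa, Hoxb and cofactor genes, 9 were higher and 0 lower in LSK cells, with a median of 1.52. Hoxa9, which drives self-renewal in stem and leukaemic cells, had 29.3, 19.3, 28.4 and 25.3 CPM in LSK libraries, against 12.2, 7.72, 7.08 and 8.78 CPM in progenitor libraries (log2 fold change 1.51 ± 0.17, adjusted p = 2.76e-07). Hoxa10 had 9.56, 5.04, 6.41 and 4.11 CPM in LSK libraries, against 0.734, 0.386, 0.326 and 0.466 CPM in progenitor libraries (3.67 ± 0.46, adjusted p = 9.37e-07). In neither gene did the populations overlap. Hoxa3, Hoxa5 and Hoxa7 were higher by 2.28, 1.81 and 1.34 on the log2 scale. Hoxb3 was also higher (0.98 ± 0.26, adjusted p = 0.00716), and Hoxb4, known for expanding stem cells in culture, did not pass (0.44 ± 0.19, adjusted p = 0.0975). Without the LSK libraries labelled 2 and 3, 10 of the 14 were higher and 0 lower, with a median of 1.43. Hoxb4 was then called (0.72, adjusted p = 0.0167).

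Many genes of antigen presentation and some of interferon responses were higher in LSK cells, beside 12.9% of all genes higher and 8.84% lower. Of 10 MHC class II genes, 9 were higher and 0 lower, with a median of 1.24. H2-Aa, an alpha chain of the class II molecule, had 25.7, 23.2, 21.5 and 21.3 CPM in LSK libraries, against 4.92, 1.54, 3.5 and 2.33 CPM in progenitor libraries (log2 fold change 2.88 ± 0.38, adjusted p = 2.18e-06). Cd74, the invariant chain, had 63.9, 36.2, 50.2 and 38.2 CPM in LSK libraries, against 17, 5.21, 7.82 and 6.29 CPM in progenitor libraries (2.36 ± 0.40, adjusted p = 6.48e-05). These genes were separate between the populations. H2-Eb1, a beta chain, and H2-DMa, a peptide loading factor, were higher by 2.48 and 1.4 on the log2 scale. Of 14 MHC class I genes, 9 were higher and 0 lower, with a smaller median of 0.54: Tap2, a peptide transporter, gave 0.70 ± 0.20, adjusted p = 0.00893, and H2-K1, a heavy chain, gave 0.51 ± 0.15, adjusted p = 0.0165. Of 37 interferon-stimulated genes, 13 were higher and 0 lower, with a median of 0.57. Ifi203, a DNA-sensing family member, had 232, 145, 253 and 225 CPM in LSK libraries, against 84.9, 52.1, 57.8 and 60.2 CPM in progenitor libraries (1.75 ± 0.24, adjusted p = 4.2e-06), and Ifit3, an antiviral effector, had 47.3, 18.7, 32.9 and 41.8 CPM in LSK libraries, against 11.5, 7.53, 5.86 and 9.48 CPM in progenitor libraries (2.03 ± 0.37, adjusted p = 0.000191). Of 8 Gimap genes, small GTPases of lymphocytes, 5 were higher and 0 lower, with Gimap6 at 2.14 and Gimap1 at 2.24 on the log2 scale. MHC, Gimap and Ms4a6 family genes have close copies, between which reads could be split.

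Some genes with the widest differences belonged to none of the lists. Col4a1 and Col4a2, which encode the basement membrane collagen IV, had log2 fold changes of 4.03 ± 0.32, adjusted p = 4.25e-10 and 4.13 ± 0.36, adjusted p = 2.15e-09. Tbxa2r, the thromboxane receptor, ranged over 6.68 to 11.9 CPM in LSK libraries and 0.311 to 1.03 CPM in progenitor libraries (4.17 ± 0.44, adjusted p = 6.29e-08). Shisa8, a transmembrane protein gene, had 42.1, 23.2, 34.3 and 22.9 CPM in LSK libraries, against 3.23, 0.675, 0.57 and 2.25 CPM in progenitor libraries (4.14 ± 0.44, adjusted p = 7.82e-08). All 4 stood higher in every LSK library than in any progenitor library.

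Erythroid genes were the main group higher in progenitors, beside 8.84% of all genes lower in LSK cells and 12.9% higher. Of 24 tested, 18 were lower in LSK cells and 1, Cnrip1, was higher, 10 of the 18 past a fold of 2, and the median log2 fold change was -2.07. The summed level of the list was 1036 to 1243 CPM in LSK libraries and 3261 to 4655 CPM in progenitor libraries. Without the LSK libraries labelled 2 and 3, 15 were lower and 1 higher, with the same median of -2.07. The promoters of 4 red cell genes and of Dntt are shown because each holds the GATA factor motif AGATAA in the 250 bases before its start (RefSeq, GRCm38.p6; 5′ to 3′ along the gene, the match in capitals, read as TTATCT in Epor, where it lies on the opposite strand). Kel and Pklr belong to none of the lists. Kel and Epor were chosen after their values were seen.
Rhd, chr4:134864286-134864535, plus strand: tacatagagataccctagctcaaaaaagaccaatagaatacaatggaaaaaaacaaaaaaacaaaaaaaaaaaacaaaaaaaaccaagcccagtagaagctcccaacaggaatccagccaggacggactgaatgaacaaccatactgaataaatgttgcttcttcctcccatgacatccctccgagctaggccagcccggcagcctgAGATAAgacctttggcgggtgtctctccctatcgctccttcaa
Pklr, chr3:89135892-89136141, plus strand: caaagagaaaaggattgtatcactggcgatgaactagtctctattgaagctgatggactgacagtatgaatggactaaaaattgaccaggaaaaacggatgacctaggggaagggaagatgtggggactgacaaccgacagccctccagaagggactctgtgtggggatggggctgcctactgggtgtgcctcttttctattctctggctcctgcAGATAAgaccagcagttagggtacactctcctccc
Kel, chr6:41704326-41704575, minus strand: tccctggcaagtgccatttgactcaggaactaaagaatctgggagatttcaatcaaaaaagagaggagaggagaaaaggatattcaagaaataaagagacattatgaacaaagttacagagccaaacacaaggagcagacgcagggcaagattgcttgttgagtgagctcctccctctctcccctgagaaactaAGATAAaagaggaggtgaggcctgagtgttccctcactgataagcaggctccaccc
Epor, chr9:21963577-21963826, minus strand: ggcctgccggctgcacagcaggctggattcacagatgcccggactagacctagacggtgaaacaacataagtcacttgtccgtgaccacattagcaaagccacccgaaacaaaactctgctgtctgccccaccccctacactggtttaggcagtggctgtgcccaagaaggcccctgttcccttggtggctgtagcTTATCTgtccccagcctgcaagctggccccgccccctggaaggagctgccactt
Dntt, chr19:41029025-41029274, plus strand: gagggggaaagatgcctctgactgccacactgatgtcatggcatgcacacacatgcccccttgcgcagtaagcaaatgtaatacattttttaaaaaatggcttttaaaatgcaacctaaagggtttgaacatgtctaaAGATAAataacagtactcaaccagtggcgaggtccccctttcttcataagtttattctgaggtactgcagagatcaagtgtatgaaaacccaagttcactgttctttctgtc

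The match begins 43 bases before the start in Rhd, 35 in Pklr, 56 in Kel, 54 in Epor and 112 in Dntt. AGATAA, on either strand, was in 13 of 57 promoters (22.8%) of genes past a fold of 2 lower in LSK cells, in 24 of 270 (8.89%) of those higher in LSK cells and in 6.36% of the promoters of 10623 tested genes. The RUNX motif TGTGGT was in 22.8%, 12.6% and 11.2% of the same sets, and the ETS motif CCGGAAG in 1.75%, 2.59% and 13.6%. The shares were 7.02%, 9.26% and 7.52% for the C/EBP motif TTGCNNAA, 35.1%, 28.1% and 36.9% for the NF-Y motif CCAAT, and 7.02%, 11.1% and 11.01% for the CHR element TTTGAA. The KLF motif CCACACCC was in 0%, 3.33% and 3.58%, and the E2F motif TTTGGCGC in 0%, 0% and 0.819%. These are counts of letters and were not tested.

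Rhd, which encodes a Rhesus membrane protein (chr4:134864536-134896172), had 0.73, 2.38, 1.16 and 2.97 CPM in LSK libraries, against 15.9, 32.9, 28.3 and 44.7 CPM in progenitor libraries (log2 fold change -4.05 ± 0.76, adjusted p = 0.000217). Rhag, its partner in the membrane, had 2.7, 9.23, 5.82 and 9.74 CPM in LSK libraries, against 34.9, 81.7, 76.4 and 95.1 CPM in progenitor libraries (-3.38 ± 0.59, adjusted p = 0.000107). Progenitor values exceeded LSK values in every library for both genes. Ermap, an erythroid adhesion protein of the immunoglobulin family, had 18.2, 49.996, 34.8 and 50.7 CPM in LSK libraries, against 227, 372, 285 and 418 CPM in progenitor libraries (-3.08 ± 0.52, adjusted p = 6.38e-05). The membrane skeleton genes Ank1 (ankyrin; -3.02 ± 0.51, adjusted p = 6.7e-05) and Add2 (beta adducin; -3.21 ± 0.59, adjusted p = 0.000193) were lower in LSK cells too. Kel, a blood group metalloprotease, and Epor, the erythropoietin receptor, gave -2.7 ± 0.42, adjusted p = 2.44e-05 and -2.21 ± 0.44, adjusted p = 0.000425. Tfrc, the transferrin receptor that imports iron, had 173, 165, 159 and 170.4 CPM in LSK libraries, against 368, 355, 439 and 432 CPM in progenitor libraries (-1.26 ± 0.12, adjusted p = 2.12e-08).

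Enzymes and transporters known from red cells were lower in LSK cells too, beside 8.84% of all genes lower and 12.9% higher. Pklr, the pyruvate kinase of liver and red cells, had 6.28, 14.7, 11.4 and 14.5 CPM in LSK libraries, against 80.02, 132, 101 and 159.9 CPM in progenitor libraries (log2 fold change -3.33 ± 0.56, adjusted p = 6.18e-05). Of 9 heme synthesis genes, 6 were lower and 0 higher, with a median of -0.79. Cpox, which encodes coproporphyrinogen oxidase, had 75.2, 103, 77.2 and 77.8 CPM in LSK libraries, against 260.2, 317, 313 and 346 CPM in progenitor libraries (-1.89 ± 0.26, adjusted p = 4.02e-06), and the populations did not overlap. Fech, the ferrochelatase, gave -1.05 ± 0.15, adjusted p = 1.02e-05. Without the LSK libraries labelled 2 and 3, 2 of the 9 were lower. Sphk1, a sphingosine kinase, Atp7b, a copper transporter, and Abcg4, a lipid transporter, had log2 fold changes of -3.52, -3.87 and -3.94. Tlcd4, Paqr9, Cldn13, Nxpe2 and Slc25a21, also among the 12 named for the largest differences in this direction, had log2 fold changes of -4.24, -3.37, -3.37, -3.3 and -3.14.

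Members of other myeloid lists differed in both directions, beside 12.9% of all genes higher and 8.84% lower in LSK cells. Of 19 megakaryocyte genes, 7 were higher and 2 lower in LSK cells, and 6 and 0 without the LSK libraries labelled 2 and 3: Plek, the platelet protein pleckstrin, had 188, 156, 142 and 132 CPM in LSK libraries, against 71, 40.8, 46.3 and 41.7 CPM in progenitor libraries (log2 fold change 1.63 ± 0.24, adjusted p = 1.41e-05), Pf4, platelet factor 4, gave 1.48 ± 0.35, adjusted p = 0.00274, and Itga2b, the integrin CD41, did not pass (0.51 ± 0.21, adjusted p = 0.0737). Of 15 mast cell, basophil and eosinophil genes, 2 were higher and 1 lower, a share near that of all genes, and 1 and 1 without those libraries. The lower gene was Il1rl1, the interleukin 33 receptor, with 26.6, 25, 31.9 and 24.6 CPM in LSK libraries, against 99.8, 101, 63.1 and 79.7 CPM in progenitor libraries (-1.67 ± 0.25, adjusted p = 1.36e-05). Alox15, a lipoxygenase, was higher by 2.61 on the log2 scale. Of 23 neutrophil granule genes, 2 were lower, a share near that of all genes, and 0 higher, with a median of -0.69 and a summed level of 7201 to 16901 CPM in LSK libraries and 10505 to 25792 CPM in progenitor libraries. Elane, which encodes neutrophil elastase, and Fcnb, a ficolin, were the lower genes (-1.04 ± 0.35, adjusted p = 0.0308, and -2.07 ± 0.58, adjusted p = 0.00976), though their libraries overlapped.

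Some monocyte and macrophage genes were higher in LSK cells, beside 12.9% of all genes higher and 8.84% lower. Of 22 tested, 8 were higher and 0 lower, with a median of 0.49, and 5 without the LSK libraries labelled 2 and 3 (median 0.33). Ctss, which encodes the lysosomal protease cathepsin S, had 67.6, 54.5, 54.7 and 51.1 CPM in LSK libraries, against 15.3, 10.7, 11.8 and 15.3 CPM in progenitor libraries (log2 fold change 2.1 ± 0.28, adjusted p = 2.86e-06). Ccr2, the chemokine receptor of inflammatory monocytes, had 91, 156, 117 and 108 CPM in LSK libraries, against 46.4, 40.05, 57.6 and 42 CPM in progenitor libraries (1.35 ± 0.19, adjusted p = 4.36e-06). Irf8, the factor of monocyte and dendritic cell fate, had 128, 244, 178 and 169 CPM in LSK libraries, against 66.6, 77.7, 99.9 and 71.2 CPM in progenitor libraries (1.19 ± 0.22, adjusted p = 0.000222). None of these genes overlapped between the populations. Ms4a6c, a membrane protein, Psap, a lysosomal activator, and Csf1r, the M-CSF receptor, were higher by 1.44, 0.86 and 0.95 on the log2 scale; Csf1r was not called without the LSK libraries labelled 2 and 3, nor were Cd68, a lysosomal protein, and the fate factor Spi1, which encodes PU.1 (0.49 ± 0.16, adjusted p = 0.0322 with all libraries). Of 11 dendritic cell genes, 5 were higher and 1 lower, the lower being Zbtb46, a factor of classical dendritic cells also found in erythroid progenitors (-2.62 ± 0.59, adjusted p = 0.00153).

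Some replication and growth genes were lower in LSK cells, beside 12.9% of all genes higher and 8.84% lower. Of 42 S phase genes, 7 were lower and 0 higher, with a median of -0.10, and 4 without the LSK libraries labelled 2 and 3. Orc1, of the origin recognition complex, had 34.9, 30.5, 32 and 32.6 CPM in LSK libraries, against 58.7, 57.4, 43.1 and 47.7 CPM in progenitor libraries (log2 fold change -0.67 ± 0.12, adjusted p = 0.000138), and Mcm10, a replication fork factor, had 101, 113, 115 and 123 CPM in LSK libraries, against 146, 161, 146 and 152 CPM in progenitor libraries (-0.42 ± 0.08, adjusted p = 0.000326). The populations did not overlap for either gene. Of 52 G2 and M phase genes, 1 was lower, Gtse1, and 0 were higher. Of 28 MYC and ribosome biogenesis genes, 12 were lower and 1, Mycn, was higher, with a median of -0.30, and 6 were lower and 0 higher without the 2 LSK libraries, Mycn no longer called. Nop2, a ribosomal RNA methyltransferase, gave -0.40 ± 0.08, adjusted p = 0.000972, Nolc1, a nucleolar chaperone, -0.43 ± 0.09, adjusted p = 0.00122, and Cad, the first enzyme of pyrimidine synthesis, -0.64 ± 0.17, adjusted p = 0.00543. No cytosolic ribosomal protein gene of 37 passed (0 higher, 0 lower).

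Cell cycle regulators differed in both directions, and some p53 targets were lower in LSK cells, beside 12.9% of all genes higher and 8.84% lower. Ccnd1, which encodes cyclin D1, had 74.7, 79.9, 67.7 and 68.8 CPM in LSK libraries, against 24.4, 22.3, 21.4 and 22 CPM in progenitor libraries (log2 fold change 1.69 ± 0.24, adjusted p = 7.23e-06), whereas Ccne1, cyclin E1, had 51, 51.4, 50.8 and 47.7 CPM in LSK libraries, against 87.3, 112, 101 and 114 CPM in progenitor libraries (-1.04 ± 0.21, adjusted p = 0.000605). The populations were separate in both, in opposite directions. Cdkn1c, the CDK inhibitor p57, was higher by 2.24 and Ndn, the imprinted gene of necdin, by 3.34 on the log2 scale. Of 22 p53 target genes, 8 were lower and 1, Sesn1, was higher in LSK cells, with a median of -0.25, and 5 were lower without the LSK libraries labelled 2 and 3. Ccng1, which encodes cyclin G1, had 167, 178, 168 and 139.6 CPM in LSK libraries, against 273, 314, 289 and 299.9 CPM in progenitor libraries (-0.85 ± 0.09, adjusted p = 1.29e-07), and Zmat3, an RNA-binding target, and Mdm2, the p53 ubiquitin ligase, gave -1.01 ± 0.22, adjusted p = 0.000908 and -0.46 ± 0.12, adjusted p = 0.00503. Of 14 BCL2 family genes, 3 were higher and 0 lower: Bcl2, with 132, 129.9, 130.4 and 122 CPM in LSK libraries, against 61.6, 45.7, 46.5 and 47 CPM in progenitor libraries (1.36 ± 0.20, adjusted p = 9.05e-06), Bcl2l1, which encodes BCL-XL (0.64 ± 0.13, adjusted p = 0.000405), and Bok (3.78 ± 0.58, adjusted p = 1.94e-05).

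HBO1 complex subunits showed few differences, beside 12.9% of all genes higher and 8.84% lower in LSK cells. Of 10 subunit genes tested, Kat7 included, 1 was higher and 0 lower: Meaf6, with 45.6, 34.9, 36.3 and 40.01 CPM in LSK libraries, against 30.9, 32.1, 27.8 and 31.5 CPM in progenitor libraries (log2 fold change 0.36 ± 0.11, adjusted p = 0.02). Of 25 MLL, menin, DOT1L and Polycomb genes, 2 were higher and 1 lower. The shares in both lists were near or below those of all genes. Cbx8, a reader of Polycomb repressive complex 1, gave 0.68 ± 0.18, adjusted p = 0.00722, and Suz12, a core subunit of Polycomb repressive complex 2, gave -0.27 ± 0.08, adjusted p = 0.019, and neither was called without the LSK libraries labelled 2 and 3.

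The next comparison asks where the population difference without Kat7 departs from that in CreER controls, which share no library with the knockouts. In controls 2586 genes passed (17.9%), 1890 of them also called in knockouts in the same direction. Across the 14459 genes the log2 fold changes of the knockouts and of the controls had a Pearson r of 0.820, and 79.5% had the same sign, as a description, since genes are no replicates of a condition. Of the 361 genes past a fold of 2 higher in knockout LSK cells, 360 had the same sign in controls and 343 were called there. Of the 77 lower, 77 had the same sign and 69 were called. These genes were picked for large differences in the knockouts, so their sizes there are no comparison of size.

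**Figure D3:**
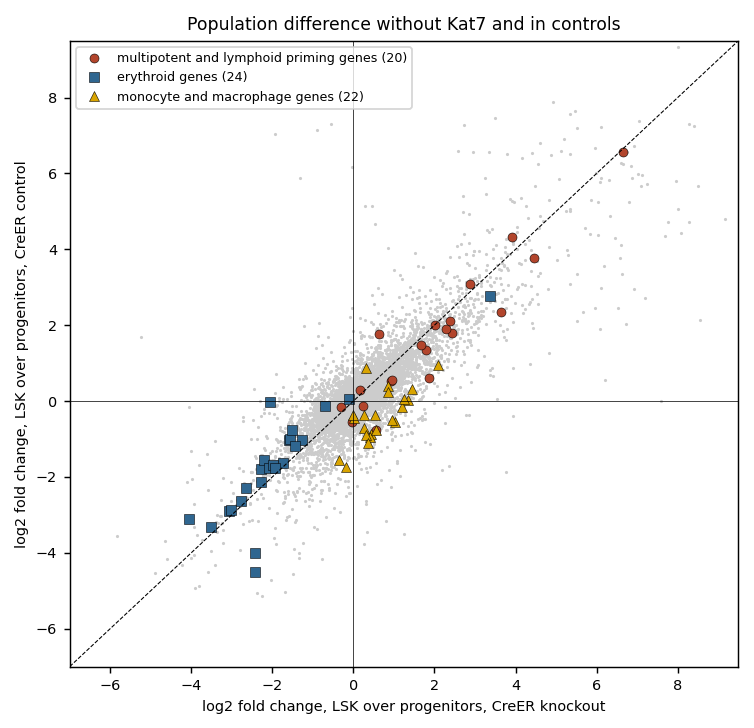
Log2 fold change, LSK over progenitors, in CreER knockouts (horizontal) and CreER controls (vertical) for each of 14459 genes (grey), with 20 lymphoid priming, 24 erythroid and 22 monocyte genes marked and a dashed line of equality. The monocyte genes lie mostly to the right of the line, with medians of 0.49 in knockouts and -0.41 in controls.

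The difference itself passed for 1 gene (0.00692%), Tmem119, a membrane protein gene known from microglia and bone (chr5:113793729-113800396). Its levels were 5.84, 9.0, 9.23 and 9.96 CPM in LSK knockouts and 5.8, 6.37, 6.76 and 5.21 CPM in progenitor knockouts, against 4.93, 5.17, 6.1 and 4.66 CPM in LSK controls and 8.48, 10.4, 11.7 and 7.3 CPM in progenitor controls. Knockout LSK values were mostly above knockout progenitor values, with an overlap, and control LSK values were all below control progenitor values. The log2 fold change of LSK over progenitors was 0.50 ± 0.16, adjusted p = 0.0274 in knockouts and -0.86 ± 0.17 in controls, a difference of 1.36 ± 0.23 (adjusted p = 0.0379; 0.000546 to 0.41 over 28 alternatives). Without the LSK libraries labelled 2 and 3 the difference was 1.26 and the adjusted p 0.41. The call was also lost without any 1 of 11 libraries: LSK knockout 2, 3 or 4, progenitor knockout 1, 2 or 4, LSK control 1, 2 or 4, or progenitor control 2 or 3. With the mouse as a block 11 genes passed; the block pairs libraries by mouse labels that LSK libraries 2 and 3 go against, and 43 passed with these exchanged, so blocked counts here are alternatives and no result rests on them. Without a block, DESeq2 called 13, and 533 genes (3.69%) had an unadjusted p under 0.05.

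Monocyte and macrophage genes leaned the same way as a list. Over all 14459 genes, 1534 were higher and 1052 lower in LSK cells of controls, and 1867 and 1278 in knockouts. In controls 1 of the 22 was higher and 4 were lower in LSK cells, beside 8 and 0 in knockouts, and the difference between knockouts and controls was positive in 21 of 22, with a median of 1.21 beside 0.00685 over all genes, of which 7395 of 14459 were positive. An unadjusted p under 0.05 was reached by 15 of the 22, against 3.69% of all genes, and an adjusted p under 0.05 by 0. These counts are a description, since list members share libraries, vary together and are no replicates of a condition. The library labelled LSK 2, for example, was the highest LSK knockout for Ccr2, Irf8, Csf1r and F13a1, though not for Ctss. The list was also chosen with earlier results of these data known. With the mouse as a block by the labels, 5 passed (Irf8, Csf1r, F13a1, Ccr2 and Ms4a6c), and 8 with LSK libraries 2 and 3 exchanged; DESeq2 called Ccr2, Irf8 and Csf1r. The same 8 knockout libraries underlie the list's description above, so this is not independent of it.

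Ccr2 had 91, 156, 117 and 108 CPM in LSK knockouts and 46.4, 40.05, 57.6 and 42 CPM in progenitor knockouts, against 97.1, 96, 144 and 130.004 CPM in LSK controls and 74.2, 131, 133 and 123 CPM in progenitor controls. Its difference was 1.33 ± 0.26 (adjusted p = 0.137; 0.0356 with the mouse as a block). Knockout progenitors stood below all other groups, and within progenitors Ccr2 was lower in knockouts than in controls (log2 fold change -1.31, adjusted p = 0.000204), while within LSK cells the value was 0.02. Irf8 had 128, 244, 178 and 169 CPM in LSK knockouts and 66.6, 77.7, 99.9 and 71.2 CPM in progenitor knockouts, against 122, 118, 224 and 149.6 CPM in LSK controls and 113, 170.5, 254 and 152 CPM in progenitor controls. Its difference was 1.36 ± 0.31 (adjusted p = 0.353; 0.0320 with the block), and within progenitors it was lower in knockouts (log2 fold change -1.13, adjusted p = 0.00709). Csf1r had 46.7, 91.1, 61.3 and 62.3 CPM in LSK knockouts and 30.5, 32.8, 38.4 and 33.6 CPM in progenitor knockouts, against 37.3, 34.1, 64.1 and 40.9 CPM in LSK controls and 38.9, 61.5, 92.6 and 56.8 CPM in progenitor controls, a difference of 1.45 ± 0.34 (adjusted p = 0.353; 0.0320 with the block). Knockout progenitors held the lowest values of all 4 groups for Irf8, and for Csf1r they overlapped the LSK controls. Over the alternative settings the adjusted p of the difference ranged over 0.00474 to 1 for Ccr2, 0.00998 to 1 for Irf8 and 0.00998 to 1 for Csf1r, and without the LSK libraries labelled 2 and 3 the differences were 1.09, 1.1 and 1.2 on the log2 scale. F13a1, a coagulation factor subunit of monocytes, had a difference of 1.35 ± 0.38 and was picked after its values were seen.

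**Figure D4:**
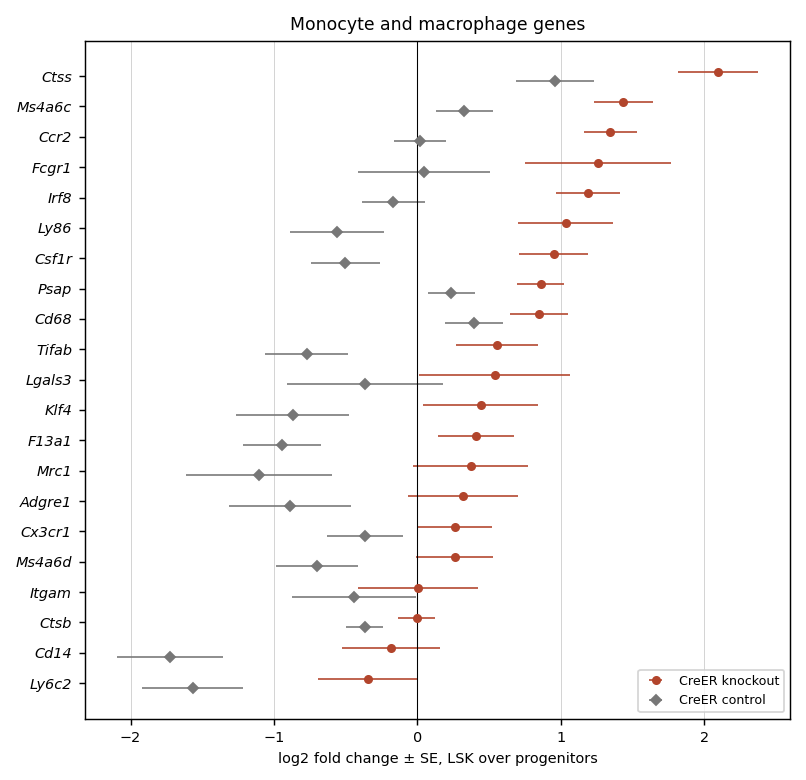
Log2 fold change, LSK over progenitors, with its SE for 21 of the 22 monocyte and macrophage genes in CreER knockouts and CreER controls. The knockout value is the higher of the 2 in each of the 21 drawn; the 1 member not drawn is the one with the lower knockout value.

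Neutrophil granule genes are set beside the monocyte list, and none of them passed for a difference between knockouts and controls. The summed monocyte list held 1715 to 2896 CPM in LSK knockouts and 1273 to 2001 CPM in progenitor knockouts, against 1210.1 to 2284 CPM in LSK controls and 1553 to 3042 CPM in progenitor controls. For the 23 neutrophil granule genes the difference was positive in 23, with a median of 0.76 and 8 at an unadjusted p under 0.05, and their sums were 7201 to 16901 CPM, 10505 to 25792 CPM, 5239 to 11682 CPM and 14995 to 26903 CPM in the same 4 groups. For the erythroid list the difference was positive in 3 of 24, with a median of -0.24. The part of the neutrophil list in the monocyte result was not tested.

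**Figure D5:**
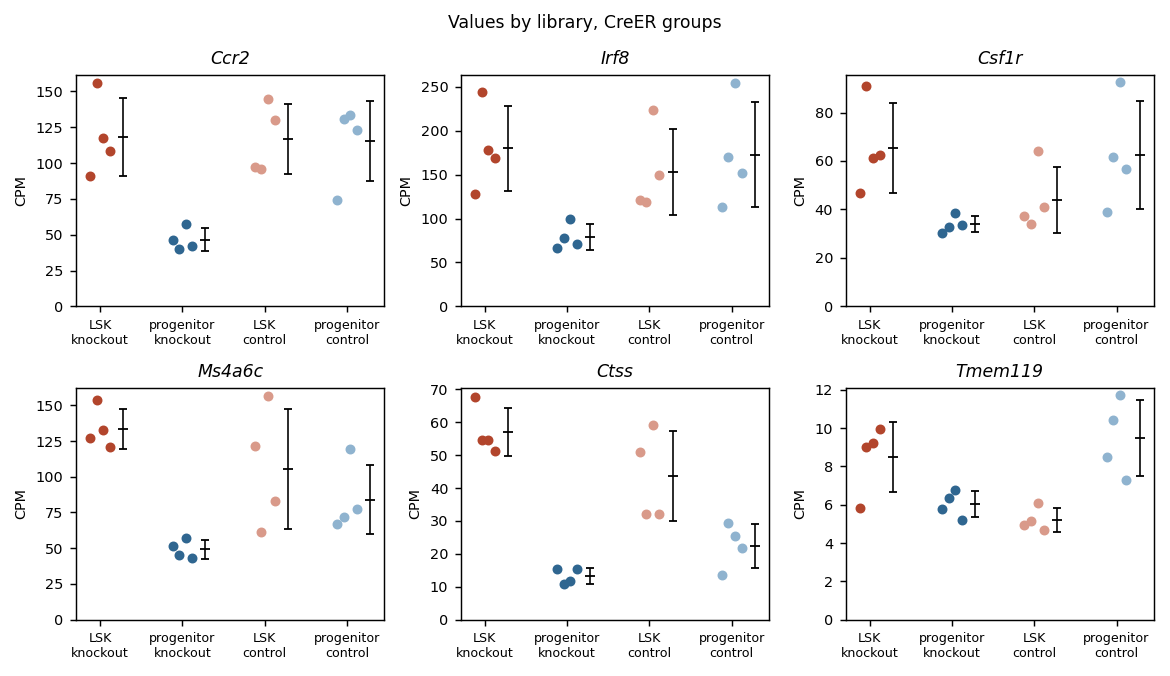
CPM of Ccr2, Irf8, Csf1r, Ms4a6c, Ctss and Tmem119 in each library of LSK knockouts, progenitor knockouts, LSK controls and progenitor controls (4 each, CreER), with mean ± SD. For Ccr2 the progenitor knockouts, at 40.05 to 57.6 CPM, lie below the other 3 groups.

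The last comparison sets the CreER knockouts beside the Mx1Cre knockouts, in which 2110 genes passed between LSK cells and progenitors (14.6%), 1482 of them called in CreER knockouts in the same direction. The 2 knockouts share no library, but Cre line, inducing agent and mice cannot be told apart. Trends with gene length, taken on deviations from each gene's mean over all libraries, differed too. Slopes of log2 CPM on log2 exon length were 0.0331 to 0.0999 in CreER and -0.295 to 0.0215 in Mx1Cre knockouts. Pearson's r across all genes was 0.734, and 71.5% had the same sign. Of the 77 genes past a fold of 2 lower in CreER knockout LSK cells, 77 were called in Mx1Cre knockouts, and of the 361 higher, 282 were. The erythroid list had a median of -2.07 in CreER knockouts and -3.57 in Mx1Cre knockouts. In LSK cells of Mx1Cre knockouts, 1186 of 14459 genes were higher and 924 lower. Of the 22 monocyte and macrophage genes, 2 were higher and 1 lower there, with a median of 0.07. These shares were near those of all genes. In CreER knockouts 8 of the 22 were higher and 0 lower, with a median of 0.49, beside 1867 and 1278 of all genes.

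The difference between the knockouts passed for 15 genes (0.104%), 14 with a higher and 1 with a lower value in CreER knockouts; with the mouse as a block, 140 passed by the labels and 137 with LSK CreER knockout libraries 2 and 3, whose labels are in doubt, exchanged. Ddx4, a germline RNA helicase gene, had 12.3, 5.1, 7.82 and 5.4 CPM in LSK knockouts and 0.44, 0.0965, 0.163 and 0.311 CPM in progenitor knockouts, against 0.474, 1.72, 1.33 and 1.68 CPM in LSK Mx1Cre knockouts and 1.3, 0.607, 0.992 and 0.299 CPM in progenitor Mx1Cre knockouts. The LSK excess in CreER knockouts, 4.82, was 4.18 ± 0.69 above that in Mx1Cre knockouts (adjusted p = 0.0171). Adgrl4, an adhesion receptor of endothelium and stem cells, had 299, 161, 237 and 166 CPM in LSK knockouts and 27.9, 19.7, 33.1 and 22.8 CPM in progenitor knockouts, against 196, 246, 185 and 254 CPM in LSK Mx1Cre knockouts and 62.4, 94.9, 67 and 70.1 CPM in progenitor Mx1Cre knockouts. LSK cells were above progenitors in both knockouts, by 3.06 in CreER and 1.58 in Mx1Cre knockouts, a difference of 1.48 ± 0.26 (adjusted p = 0.0171). Hlf and Col4a2, named above for the population difference, also had a larger LSK excess in CreER knockouts, by 1.66 ± 0.34 and 2.24 ± 0.46 (adjusted p = 0.0363 for both). Hlf had 53.7 to 128 CPM in LSK and 8.39 to 12.9 CPM in progenitor CreER knockouts, against 22.6 to 44.3 and 10.3 to 14.7 CPM in Mx1Cre knockouts. Col4a2 had 11.7 to 23.6 CPM in LSK and 0.289 to 1.55 CPM in progenitor CreER knockouts, against 30.0 to 39.8 and 4.48 to 13.6 CPM in Mx1Cre knockouts. Its LSK level was thus lower in CreER knockouts. Over 28 alternatives the adjusted p ranged over 0.00116 to 0.112 for Hlf and 0.000378 to 0.111 for Col4a2. Both calls were lost with only the libraries compared and without LSK CreER knockout 1 or 3, progenitor CreER knockout 1, 2 or 4, LSK Mx1Cre knockout 1, 3 or 4, or progenitor Mx1Cre knockout 3. Hlf was also lost with scaling to total counts and without progenitor Mx1Cre knockout 2 or 4, and Col4a2 without LSK CreER knockout 4, LSK Mx1Cre knockout 2 or progenitor Mx1Cre knockout 1. The range was 1.73e-05 to 0.051 for Ddx4, lost without LSK Mx1Cre knockout 3, and 8.41e-05 to 0.0632 for Adgrl4, lost without LSK Mx1Cre knockout 1 or 3.

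Ache, which encodes acetylcholinesterase, did not pass between the populations in CreER knockouts: it had 8.4, 11.3, 9.98 and 13.7 CPM in LSK knockouts and 10.1, 10.4, 8.63 and 11.6 CPM in progenitor knockouts, against 2.09, 2.09, 1.33 and 1.5 CPM in LSK Mx1Cre knockouts and 19.4, 9.53, 9.15 and 4.33 CPM in progenitor Mx1Cre knockouts, a difference of 2.7 ± 0.48 (adjusted p = 0.0171). Cd55, a complement regulator, was lower in LSK cells in both, with log2 fold changes of -1.08 in CreER and -2.91 in Mx1Cre knockouts. Ppp1r18, an actin-binding phosphatase subunit, and Tgm2, a transglutaminase, had differences of 1.4 ± 0.25 and 2.75 ± 0.51. Ccng1 was the 1 gene with a negative difference (-0.72 ± 0.13, adjusted p = 0.0171), with 167, 178, 168 and 139.6 CPM in LSK knockouts and 273, 314, 289 and 299.9 CPM in progenitor knockouts, against 89.7, 80.6, 78.1 and 73.8 CPM in LSK Mx1Cre knockouts and 95, 95.7, 80.4 and 80.6 CPM in progenitor Mx1Cre knockouts. Progenitor CreER knockouts stood above the other 3 groups for Ccng1. Over the alternatives the adjusted p ranged over 8.41e-05 to 0.0675 for Ache, 0.000194 to 0.0714 for Cd55, 0.000119 to 0.0675 for Ppp1r18, 0.000119 to 0.0708 for Tgm2 and 0.000268 to 0.071 for Ccng1, and all 5 calls were lost without LSK Mx1Cre knockout 1 or 3. All but that of Ccng1 were lost without LSK Mx1Cre knockout 4, that of Cd55 without LSK CreER knockouts 2 and 3 together, those of Ppp1r18 and Ccng1 without progenitor Mx1Cre knockout 3, that of Ccng1 without progenitor CreER knockout 2, and that of Tgm2 without LSK CreER knockout 1 or progenitor CreER knockout 4. Of the p53 targets, 8 of 22 were lower and 1 higher in LSK cells of CreER knockouts, and 0 were lower and 4 higher in Mx1Cre knockouts. Over all 14459 genes, 1278 were lower and 1867 higher in CreER knockouts, and 924 were lower and 1186 higher in Mx1Cre knockouts. The count of 15 ranged between 0 and 31 when 1 library was left out, reaching 0 without LSK Mx1Cre knockout 3 and 31 without progenitor Mx1Cre knockout 2. It was 30 without progenitor CreER knockout 3, and 1 to 9 without LSK CreER knockout 1, 3 or 4, progenitor CreER knockout 1, 2 or 4, LSK Mx1Cre knockout 1, 2 or 4, or progenitor Mx1Cre knockout 3.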

How the data were processed

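RNA was sequenced from sorted LSK and progenitor cells (50 ng of RNA, TruSeq libraries, paired 80 bp reads, per the labels' protocols). The authors deposited raw counts per gene, made with featureCounts on mm10 per the submitters' processing notes; its version and strand setting, the aligner and the annotation were not given in the sources used here, so overlapping antisense genes cannot be told apart. Gene symbols and coordinates came from a RefSeq table of GRCm38.p6 (25275 of 27179 genes; the others held 3.92% of counts). Genes were kept with edgeR's filterByExpr (minimum count 10, total 15) and tested over all 32 libraries in 8 groups with TMM scaling, glmQLFit and glmQLFTest (edgeR 4.0.16, limma 3.58.1, R 4.3.3), with Benjamini-Hochberg adjustment at 0.05 and glmTreat for a fold of 2. The SE is the log2 fold change divided by the square root of F. DESeq2 1.42.0 was an alternative. The test was checked on simulated data. CPM and RPKM use TMM library sizes. Depth of 10281516 to 17663493 counts in the 8 CreER knockout libraries limits low genes. The CreER control and Mx1Cre knockout libraries held 7275277 to 18409271. The p-values measure the spread between mice within groups, pooled over the 8 groups, and take the libraries of a mouse as independent. Same-numbered libraries share a mouse by the labels, but deviations from the group means correlated at 0.329, -0.0939, -0.0634 and 0.118 for mice 1 to 4, and LSK 2 correlated at 0.351 with progenitor 3, so blocked fits are alternatives. Genes and 37 lists (847 of 850 members found) were chosen with earlier results of these data known. Named genes are the 12 largest differences past a fold of 2 in each direction (mean of at least 5 CPM), up to 6 members a list by adjusted p, all members of 4 lists, the sort and progenitor markers, and the leading genes of each difference between comparisons; Kel, Epor and F13a1 were added after their values were seen, and a few genes under the rule are not reported here.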

Additional observations from a re-analysis of the deposited data

Results flagged for a closer look

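In groups of 4 libraries, 302 groups of values (148 genes and 3 list sums) were examined for 1 library far from the other 3, and 14 were found; chance alone gives about 1 in 20. In progenitor knockout library 1, Runx1 was at 110.3 CPM (others 87.9 to 90.1), Tbxa2r at 1.03 CPM (0.311 to 0.407), H2-Eb1 at 5.73 CPM (1.48 to 2.03) and Bcl2 at 61.6 CPM (45.7 to 47.0). Progenitor knockout library 3 had Car1 at 451 CPM (676 to 706) and Suz12 at 324 CPM (287 to 292). In progenitor knockout library 4, Hlf was at 8.39 CPM (12.4 to 12.9) and Il1r1, the interleukin 1 receptor, at 7.30 CPM (3.6 to 3.86), and in progenitor knockout library 2, Selp, which encodes P-selectin, was at 2.41 CPM (3.38 to 3.57). Among LSK knockouts, library 1 had Mcpt8, a basophil protease, at 57.7 CPM (108 to 112), the library labelled 2 had Cpox at 103 CPM (75.2 to 77.8) and Gata3 at 2.26 CPM (5.74 to 6.28), the library labelled 3 had Fgd5 at 7.99 CPM (3.11 to 3.94), and library 4 had Ccne1 at 47.7 CPM (50.8 to 51.4).

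The difference between LSK cells and progenitors itself differed between CreER knockouts and CreER controls for Tmem119, by 1.36 on the log2 scale. Between CreER knockouts and Mx1Cre knockouts it differed by 4.18 for Ddx4, 1.48 for Adgrl4, 1.4 for Ppp1r18, 2.7 for Ache, 1.83 for Cd55, 2.75 for Tgm2, -0.72 for Ccng1, 1.66 for Hlf and 2.24 for Col4a2, all on the log2 scale.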

How the results depend on the processing

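The 3145 genes called between the populations stayed within 1.5 times that number under every alternative run, between 2194 without the LSK libraries labelled 2 and 3 and 3931 with the mouse as a block and those libraries exchanged, and lay at 2459 to 3088 when 1 library was left out. Past a fold of 2, 438 became 286 with DESeq2 (247 higher, 39 lower), and 318 to 482 with 1 library left out. The 1 gene that differed from CreER controls became 0 under scaling to total counts, no filter on low counts, only the libraries compared, and without LSK libraries 2 and 3, 13 with DESeq2, and 0 to 4 with 1 library left out. The 15 that differed from Mx1Cre knockouts became 117 with DESeq2 and 42 with only the libraries compared. They became 23 with sex as a covariate, 25 with the length trend removed, and 0 to 31 with 1 library left out. The sex covariate used the labels, which the sex-linked transcripts of LSK knockout libraries 2 and 3 went against. With the mouse as a replicate block (pairing), the count against controls was 17 in the compared libraries, 11 in all 32 and 43 with LSK libraries 2 and 3 exchanged, and against Mx1Cre knockouts 114, 140 and 137; the block gave 3885, 3824 and 3931 calls between the populations. The cause of these moves was not tested. Of 3380 values of single genes under alternatives, 3193 kept direction and side of the threshold, 143 lost the call, 44 gained it and 0 reversed. Of 148 named genes, 132 were called and 117 of these remained so without LSK libraries 2 and 3, none with a changed sign. Low genes such as Kat7 in knockouts rest on few reads.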

Other observations

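Single genes of metabolism, adhesion and imprinting also differed between LSK cells and progenitors without Kat7, beside 12.9% of all genes higher and 8.84% lower in LSK cells. Of 20 glycolysis genes, 4 were higher and 2 lower in LSK cells: Slc2a1, the glucose transporter GLUT1, had 35.5, 28.2, 30.5 and 36.1 CPM in LSK libraries, against 19.5, 17.4, 16.9 and 16.5 CPM in progenitor libraries (log2 fold change 0.89 ± 0.15, adjusted p = 6.79e-05), Pkm, the pyruvate kinase of most tissues, gave 0.61 ± 0.15, adjusted p = 0.00402, and Hk1, hexokinase 1, was lower, with 412, 387, 362 and 404 CPM in LSK libraries, against 671, 619, 483 and 676 CPM in progenitor libraries (-0.65 ± 0.13, adjusted p = 0.000351). The populations did not overlap for any of these 3 genes. Of 38 oxidative phosphorylation genes, 3 were lower, a share below that of all genes, and 0 higher, among them Ndufs1, a complex I subunit (-0.43 ± 0.12, adjusted p = 0.00665), which was not called without the LSK libraries labelled 2 and 3, where 1 was lower. Of 23 adhesion and migration genes, 9 were higher and 1 lower; Icam1, an integrin ligand, had 49.3, 30.4, 44 and 39.8 CPM in LSK libraries, against 20.8, 18.9, 20.1 and 19.6 CPM in progenitor libraries (1.04 ± 0.17, adjusted p = 4.83e-05).

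Of 12 imprinted genes, 3 were higher and 3 lower in LSK cells, with a median of 0.23, and 2 and 1 with a median of -0.03 without the LSK libraries labelled 2 and 3. Grb10, a growth-inhibiting adaptor, had 98.2, 83, 74.4 and 80.4 CPM in LSK libraries, against 247, 192, 135 and 192 CPM in progenitor libraries (log2 fold change -1.19 ± 0.25, adjusted p = 0.000745), and Igf2r, the receptor that clears IGF2, gave -1.01 ± 0.32, adjusted p = 0.021 and was not called without those libraries. Of 32 cytokine and growth factor receptor genes, 13 were higher and 3 lower, and Ifnar2, a chain of the type I interferon receptor, had 95.9, 98.3, 101 and 97.4 CPM in LSK libraries, against 68.3, 70.8, 68.1 and 71.3 CPM in progenitor libraries (0.49 ± 0.09, adjusted p = 0.000186). Of the markers of mature lymphocytes, the 13 B cell genes tested had 2 higher in LSK cells, with Cd79b, a chain of the B cell receptor complex, at 19.3, 18.9, 16.6 and 17.1 CPM in LSK libraries, against 8.52, 7.62, 9.36 and 7.23 CPM in progenitor libraries (1.14 ± 0.19, adjusted p = 4.59e-05), and the 12 T and NK cell genes had 2, with Lck, a T cell kinase, at 15.3, 6.96, 14.1 and 12.2 CPM in LSK libraries, against 4.48, 3.18, 2.2 and 1.94 CPM in progenitor libraries (2.03 ± 0.26, adjusted p = 1.13e-06). The shares called in the B cell list and in the T and NK cell list were near that of all genes, 12.9% higher in LSK cells. Of 8 endothelial and stromal genes, 2 were higher and 1 lower, the lower being Plvap, an endothelial diaphragm protein (-1.62 ± 0.30, adjusted p = 0.000184). Among the remaining lists, the genes higher and lower in LSK cells numbered 3 and 0 of 17 granulocyte and monocyte fate factors, 3 and 0 of 16 immediate early genes, 5 and 2 of 30 quiescence and cell cycle inhibitor genes, 2 and 1 of 19 cholesterol synthesis genes and 0 and 1 of 32 mitochondrial ribosomal protein genes. Of these lists, the fate factors had 1 higher, the cholesterol genes 2 higher and 0 lower and the mitochondrial ribosomal genes 0 lower without the LSK libraries labelled 2 and 3; the shares called in all 5 were near or below that of all genes.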
